A study of Mus musculus with 10 samples.

Results

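The collagen genes are the rows of the mRNA tables whose symbol has the form Col, a number, the letter a and a second number. There were 44 such rows, 1 for each of 44 symbols, among 40904 gene symbols in all. The mRNA came from cultured cortical neurons of ICR mouse embryos, taken at embryonic day 14 and collected on day 11 in vitro. One culture had received an adeno-associated virus (AAV) carrying Gata1 (AAV-Gata1), a zinc finger transcription factor of blood cell development, and the other a control virus (AAV-Control). For each virus there was a single mRNA library and a single small RNA library. The sources used here give neither the promoter that drives Gata1 in the virus nor whether cultures were pooled. The 6 chromatin samples of the 10 in the series were not analysed here.

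Collagens are secreted or membrane-bound proteins built from chains that wind around each other in a triple helix. Fibrillar collagens form the cables of connective tissue, collagen IV forms the sheet of basement membranes, and other classes decorate fibrils, make beaded filaments or span the cell membrane. In the brain parenchyma fibrillar collagen is sparse, and collagen is best known from the basement membranes of vessels and of the pial surface. Some collagens are also made by neurons and glia, where they act in synapse formation and axon growth.

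With 1 library per condition no difference below has a replicate check, none was tested, and values carry no error. Levels are FPKM (fragments per kilobase of transcript, scaled to the mapped fragments of the library), which can be compared between genes because they are per length. Differences are log2((AAV-Gata1 FPKM + 1)/(AAV-Control FPKM + 1)), called the log2 ratio, where a value above 0 means higher in AAV-Gata1. This scale understates differences of low genes, and ratios of the FPKM themselves are named as such. Limits of 1.2-fold and 2-fold were applied to the log2 ratio. A gene whose mean over both libraries reached 1 FPKM is called measured.

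The libraries summed to 476848 FPKM (AAV-Gata1) and 476398 FPKM (AAV-Control), and their depth in reads is unknown. Gata1 stood at 2.07 FPKM in AAV-Gata1 and was listed at 0 in AAV-Control, which goes the way of the labels. Neuron markers were abundant, with Map2 at 236 FPKM in AAV-Gata1 and 240 FPKM in AAV-Control, and so were astrocyte markers, with Gfap at 897 and 887 FPKM in the same order. The label names neurons, and the RNA thus also held that of glia. Markers of vascular and meningeal cells were mixed. The endothelial genes Cdh5 (0 FPKM in AAV-Gata1 and 0.00861 FPKM in AAV-Control) and Cldn5 (0.0503 FPKM in AAV-Gata1 and 0 in AAV-Control) were at or near 0. The pericyte gene Kcnj8 and the meningeal genes Slc6a13 and Slc22a6 were listed at 0 in both libraries. Other markers on the same lists were present: the pericyte gene Pdgfrb, named after its values were seen, stood at 13.57 FPKM in AAV-Gata1 and 13.6 FPKM in AAV-Control, the smooth muscle gene Acta2 at 60.7 and 76.4 FPKM, the endothelial genes Egfl7 at 5.08 and 4.46 FPKM and Slco1a4 at 3.56 and 3.98 FPKM, and the fibroblast gene Dcn at 7.62 and 8.43 FPKM. In bulk RNA, fewer cells of a type and less RNA per cell cannot be told apart.

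Few collagen genes carried most of the collagen mRNA. Over all 44 genes the FPKM summed to 119.6 in AAV-Gata1 and 121.7 in AAV-Control, which is 0.0251% and 0.0255% of the library sums. The 5 highest genes, Col4a5, Col11a1, Col9a3, Col16a1 and Col4a1, made up 57.1% of that sum in AAV-Gata1 and 56.6% in AAV-Control. Of the 44 genes, 20 were measured, 16 had a mean of 0.1 to 1 FPKM and 8 a mean under 0.1 FPKM, and no collagen gene was listed at 0. The measured collagen genes lay below the middle of the measured genes: their median was 3.37 FPKM in AAV-Gata1 and 3.17 FPKM in AAV-Control, against medians of 12.83 FPKM in AAV-Gata1 and 13.01 FPKM in AAV-Control over all 13740 measured genes.

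**Figure D1:**
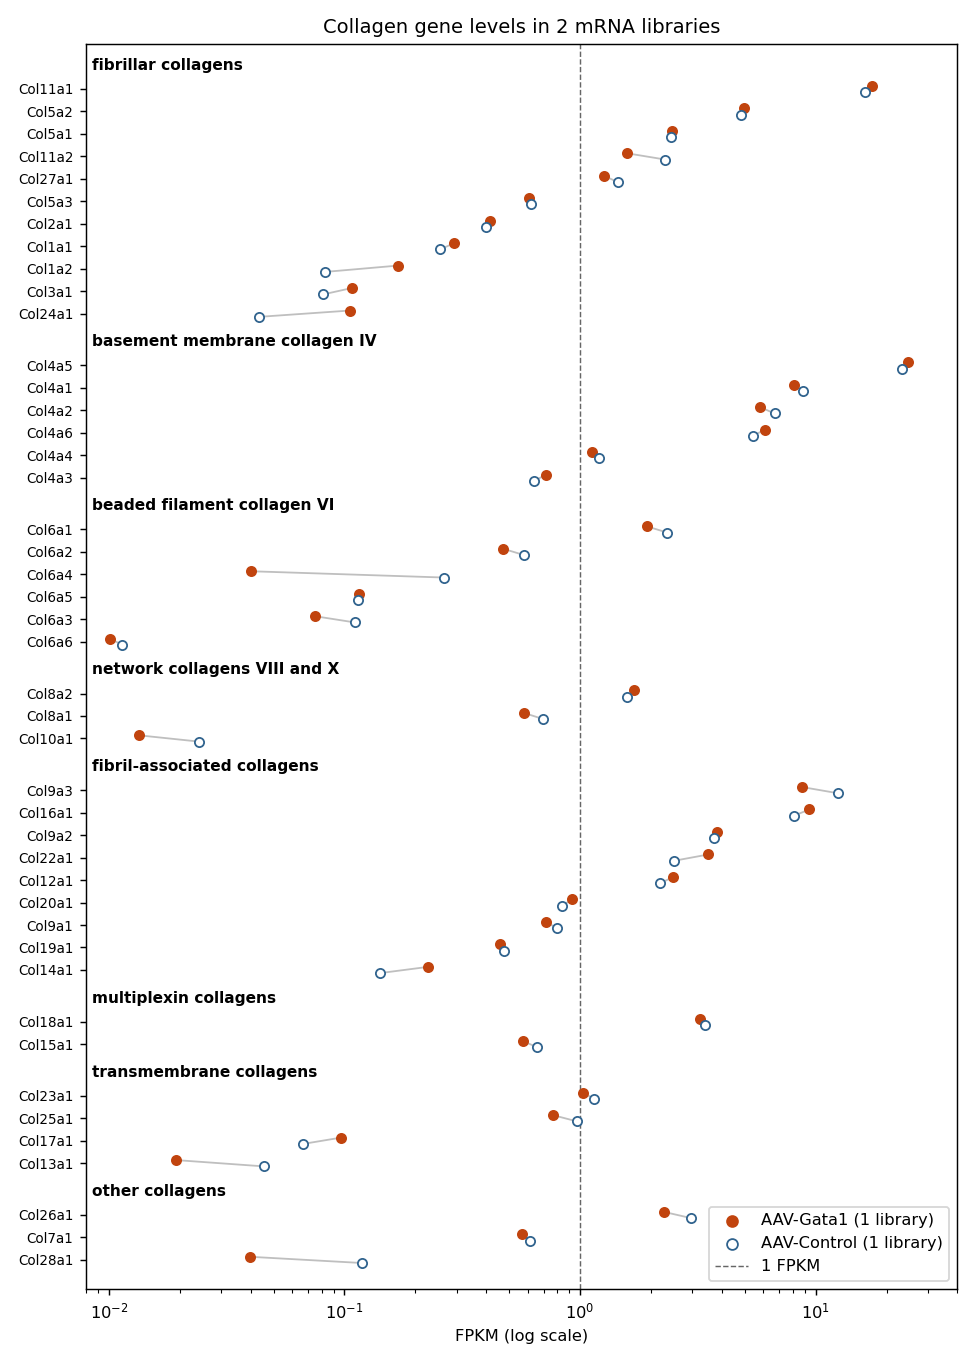
FPKM of each of the 44 collagen genes (log axis) in the AAV-Gata1 library (filled circles) and the AAV-Control library (open circles), grouped by class and ordered by mean, with a dashed line at 1 FPKM. Levels run from 0.0101 to 24.6 FPKM in AAV-Gata1 and from 0.0114 to 23.2 FPKM in AAV-Control, and the pairs lie furthest apart among genes under 1 FPKM.

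By class, collagen IV held the largest share of the summed collagen FPKM, at 38.9% in AAV-Gata1 and 37.8% in AAV-Control. Fibril-associated collagens followed with 25.3% in AAV-Gata1 and 25.7% in AAV-Control, and fibrillar collagens with 24.5% in AAV-Gata1 and 23.6% in AAV-Control. Each of the other classes held under 4% in both libraries. The order of the 3 leading classes was thus the same in both libraries.

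**Figure D2:**
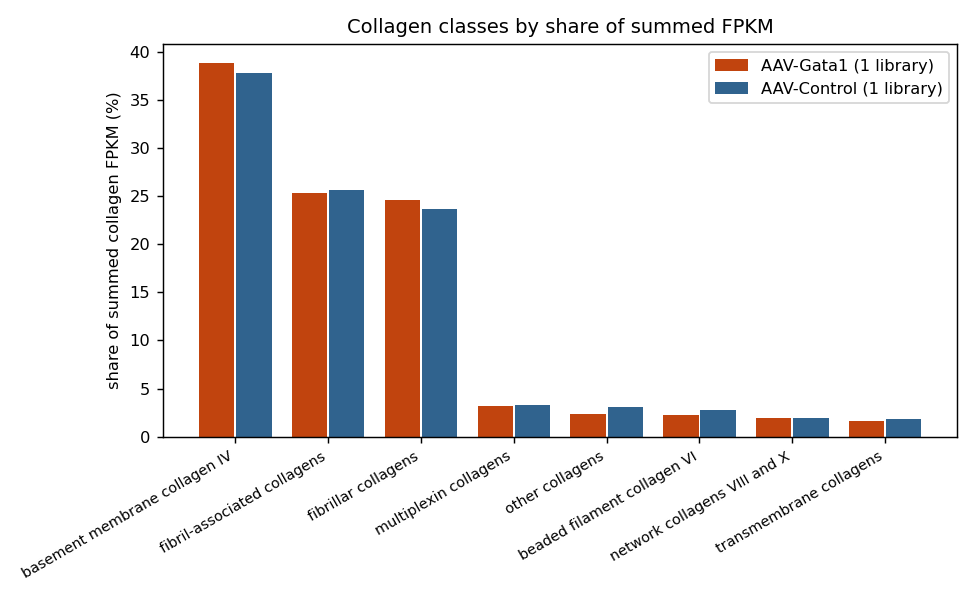
Share of the summed collagen FPKM (percent) held by each collagen class in the AAV-Gata1 library (left bars) and the AAV-Control library (right bars). Collagen IV is highest, at 38.9% in AAV-Gata1 and 37.8% in AAV-Control, ahead of the fibril-associated and fibrillar classes.

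Between the libraries the collagen genes did not move together. Of the 20 measured genes, 10 were higher and 10 lower in AAV-Gata1, where 54.7% of all measured genes had a log2 ratio below 0. Their median log2 ratio was −0.021, beside −0.013 over all 13740 measured genes, and it was 0.083 over the 7 collagen genes whose mean reached 5 FPKM. One collagen gene, Col22a1, was at least 1.2-fold higher, whereas 3, namely Col9a3, Col11a2 and Col26a1, were lower by that much or more on the log2 scale. Among all measured genes the same limit was passed upward by 3.29% and downward by 3.98%. Among the 9682 genes with a mean of 1 to 25 FPKM, a range set to that of the collagen genes after the data were seen, the shares were 4.34% and 5.23%. On this scale none of the 20 measured collagen genes was 2-fold apart, as 0.233% (higher) and 0.284% (lower) of all measured genes were.

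**Figure D3:**
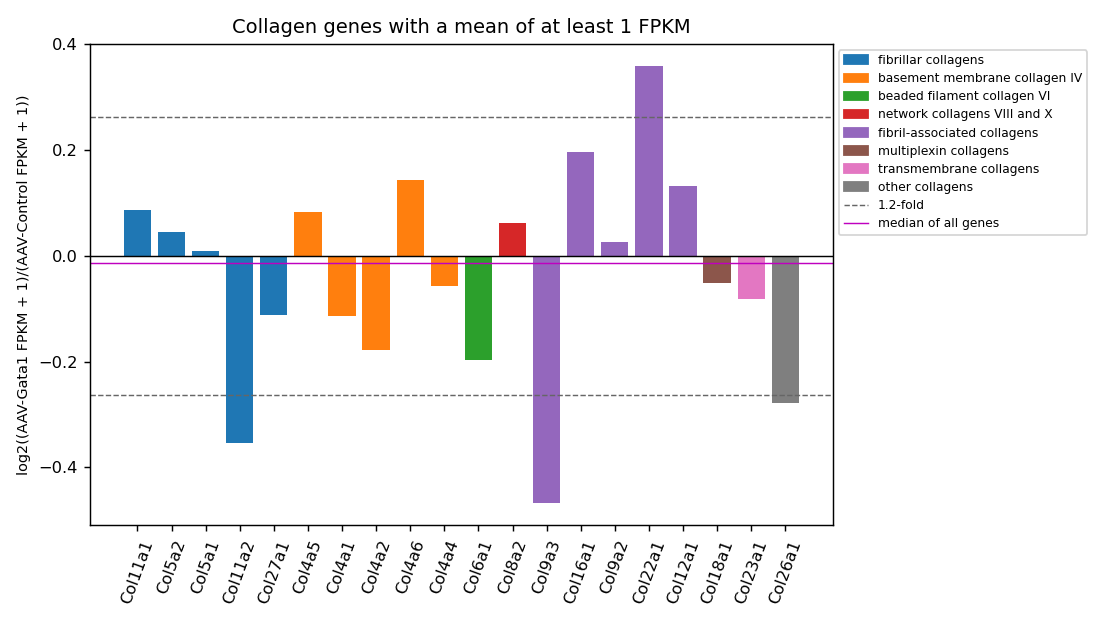
Log2 ratio (AAV-Gata1 over AAV-Control, pseudocount of 1 FPKM) of the 20 measured collagen genes, coloured by class, with dashed lines at 1.2-fold and a thin line at the median of all measured genes (−0.013). Col9a3 is lowest at −0.47, followed by Col11a2 and Col26a1, and Col22a1 is highest at 0.36.

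Collagen IV, the network-forming collagen of basement membranes, is built from 6 chains, whose genes lie in 3 head-to-head pairs. The pairs Col4a1 with Col4a2 and Col4a5 with Col4a6 each went the same way, and the pair Col4a3 with Col4a4 did not. Col4a1 and Col4a2, which encode the trimer found in nearly all basement membranes, including those of brain vessels, were both lower in AAV-Gata1. Col4a1 stood at 8.13 FPKM in AAV-Gata1 and 8.88 FPKM in AAV-Control (log2 ratio −0.11). Col4a2 stood at 5.81 FPKM in AAV-Gata1 and 6.70 FPKM in AAV-Control (log2 ratio −0.18). Both differences were under 1.2-fold.

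Col4a5 and Col4a6, whose products join in a trimer of a smaller set of basement membranes, were both higher in AAV-Gata1. Col4a5, the most abundant collagen mRNA of these cultures, stood at 24.6 FPKM in AAV-Gata1 and 23.2 FPKM in AAV-Control (log2 ratio 0.083). Col4a6 stood at 6.08 FPKM in AAV-Gata1 and 5.41 FPKM in AAV-Control (log2 ratio 0.14). These differences were also under 1.2-fold. Col4a5 mRNA was thus 3.02 times that of Col4a1 in AAV-Gata1 and 2.61 times in AAV-Control, an order that differs from the predominance of the Col4a1 and Col4a2 chains in vascular basement membranes. The level of Col4a5 was 4.04 times that of its neighbour Col4a6 in AAV-Gata1 and 4.28 times in AAV-Control, while that of Col4a1 was 1.40 times that of Col4a2 in AAV-Gata1 and 1.32 times in AAV-Control. The remaining pair, which with Col4a5 forms the collagen IV of the kidney filter, was low. Col4a4 stood at 1.12 FPKM in AAV-Gata1 and 1.21 FPKM in AAV-Control, and Col4a3 at 0.716 and 0.640 FPKM in the same order, so that one was slightly lower and the other slightly higher. The median log2 ratio of the 5 measured collagen IV genes was −0.056, with 2 higher and 3 lower, and 0.0045 with Col4a3 included.

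The start regions of the Col4a1 and Col4a2 pair and of the Col4a5 and Col4a6 pair are printed to show how close the paired genes start. They are RefSeq windows of 300 bases on build GRCm38.p6, which is not the ICR strain of the cultures, from 250 bases before to 50 after the start of each gene, on the gene's own strand. The Col4a1 window is chr8:11312777-11313076 (minus strand) and the Col4a2 window chr8:11312555-11312854 (plus strand). They overlap by 78 bases, which are in capitals and are the reverse complement of each other.
Col4a1: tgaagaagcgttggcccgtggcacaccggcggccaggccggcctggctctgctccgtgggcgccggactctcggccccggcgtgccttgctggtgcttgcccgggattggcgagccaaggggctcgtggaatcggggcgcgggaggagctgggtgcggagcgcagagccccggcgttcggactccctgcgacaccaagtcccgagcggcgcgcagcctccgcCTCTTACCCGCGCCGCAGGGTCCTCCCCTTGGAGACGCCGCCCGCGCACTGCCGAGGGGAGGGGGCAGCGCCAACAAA
Col4a2: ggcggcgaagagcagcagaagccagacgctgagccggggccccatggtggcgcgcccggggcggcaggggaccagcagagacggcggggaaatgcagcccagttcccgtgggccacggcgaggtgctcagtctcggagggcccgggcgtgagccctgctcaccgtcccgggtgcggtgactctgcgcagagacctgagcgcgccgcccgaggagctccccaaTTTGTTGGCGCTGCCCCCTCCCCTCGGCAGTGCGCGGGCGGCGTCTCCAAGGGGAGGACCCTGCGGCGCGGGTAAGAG

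The Col4a5 window is chrX:141475169-141475468 (plus strand) and the Col4a6 window chrX:141474027-141474326 (minus strand), and these do not overlap. Capitals mark matches, on either strand, to the motifs searched in all windows: the GATA hexamers (AGATAA or AGATAG, and TGATAA or TGATAG), the box spelled CCAAT, the GC box spelled GGGCGG, and the TATA box spelled TATAAA. The Col4a5 window holds 1 CCAAT and 1 GGGCGG, and the Col4a6 window 1 GC box and 2 GATA hexamers read on the other strand.
Col4a5: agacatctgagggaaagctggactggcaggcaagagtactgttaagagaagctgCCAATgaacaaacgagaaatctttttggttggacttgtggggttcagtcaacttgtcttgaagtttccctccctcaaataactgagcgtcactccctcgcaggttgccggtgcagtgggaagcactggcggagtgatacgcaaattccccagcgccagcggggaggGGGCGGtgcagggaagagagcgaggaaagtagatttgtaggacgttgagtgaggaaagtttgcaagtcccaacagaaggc
Col4a6: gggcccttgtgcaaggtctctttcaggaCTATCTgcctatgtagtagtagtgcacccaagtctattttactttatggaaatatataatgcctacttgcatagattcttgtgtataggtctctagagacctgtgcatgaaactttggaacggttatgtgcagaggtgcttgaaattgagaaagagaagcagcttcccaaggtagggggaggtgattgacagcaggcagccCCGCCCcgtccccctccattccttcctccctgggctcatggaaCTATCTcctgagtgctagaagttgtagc

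Start windows were found for 35 of the 44 collagen genes, 38 windows in all, and none for Col5a2, Col2a1, Col1a1, Col4a3, Col9a3, Col22a1, Col12a1, Col14a1 or Col26a1. A GATA hexamer, the letters that GATA factors are known to bind, was present in 6 of the 38 windows (15.8%), against 29.8% of all 32851 windows. Among measured collagen genes those windows belonged to Col11a2 and Col4a6, with 2 matches each, and to Col27a1, with 1. Of these, Col4a6 was higher in AAV-Gata1 and Col11a2 and Col27a1 lower. The collagen windows were richer in G and C (median 59.8%) than all windows (median 52.7%), and held the GC box more often (60.5% against 35.7%). CCAAT was present in 34.2% of collagen windows against 37.4% of all windows, and TATAAA in 13.2% against 13.6%. Motifs were counted separately, so matches may overlap, and a match is a string of letters and not a measured site.

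The fibrillar collagens of these cultures were the minor chains that in other tissues initiate or thin fibrils, and not the bulk collagens of connective tissue. Col11a1, a chain of collagen XI that nucleates cartilage fibrils, stood at 17.3 FPKM in AAV-Gata1 and 16.3 FPKM in AAV-Control (log2 ratio 0.087). Col5a2 and Col5a1, chains of the collagen V that starts fibrils in many tissues, stood at 4.99 and 2.47 FPKM in AAV-Gata1 and at 4.803 and 2.44 FPKM in AAV-Control. These 3 genes were within 1.07-fold between the libraries in FPKM.

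Col11a2, the partner chain of Col11a1, was lower, at 1.58 FPKM in AAV-Gata1 and 2.29 FPKM in AAV-Control (log2 ratio −0.35). Of the 13740 measured genes, 277 were at least as low. Col11a1 mRNA was thus 10.998 times that of Col11a2 in AAV-Gata1 and 7.10 times in AAV-Control. Col27a1, which encodes a fibrillar collagen of cartilage, stood at 1.26 FPKM in AAV-Gata1 and 1.44 FPKM in AAV-Control. The median log2 ratio of these 5 measured fibrillar genes was 0.010, with 3 higher and 2 lower.

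The chains of the abundant fibrils of skin, bone and cartilage were under 1 FPKM. Col1a1, of collagen I, stood at 0.293 FPKM in AAV-Gata1 and 0.254 FPKM in AAV-Control, and its partner Col1a2 at 0.169 and 0.0830 FPKM in the same order. Col2a1, the cartilage collagen, stood at 0.413 FPKM in AAV-Gata1 and 0.3999 FPKM in AAV-Control, and Col5a3 at 0.608 and 0.618 FPKM. Col3a1, named after its values were seen, stood at 0.107 FPKM in AAV-Gata1 and 0.0814 FPKM in AAV-Control. At such levels a ratio rests on few fragments, and the FPKM ratio of 2.03 of Col1a2 was a log2 ratio of 0.11 with the pseudocount. The low level of collagens I and III stood beside a list of fibroblast and meningeal markers of which 3 of 12 were measured. Dcn, a proteoglycan of fibroblasts that binds collagen fibrils, was 1 of these, at 7.62 FPKM in AAV-Gata1 and 8.43 FPKM in AAV-Control. Of 21 other matrix genes of fibroblasts, Dcn among them, 17 were measured. The part of cell types in the low level was not tested.

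Fibril-associated collagens sit on the surface of fibrils and link them to other matrix. Among the measured collagen genes this class held the highest log2 ratio, that of Col22a1, and the lowest, that of Col9a3. By FPKM ratio Col11a2 (0.688) was lower than Col9a3 (0.701), and with a pseudocount of 0.1 FPKM their log2 ratios were −0.51 for both. Col9a3, a chain of the collagen IX that coats cartilage fibrils, stood at 8.75 FPKM in AAV-Gata1 and 12.5 FPKM in AAV-Control, an FPKM ratio of 0.701 and a log2 ratio of −0.47. Of the 13740 measured genes, 140 were at least as low. The partner chains did not share this difference: Col9a2 stood at 3.80 FPKM in AAV-Gata1 and 3.72 FPKM in AAV-Control, and Col9a1 at 0.719 and 0.795 FPKM. The level of Col9a3 was therefore 2.30 times that of Col9a2 in AAV-Gata1 and 3.36 times in AAV-Control. In RefSeq Col9a3 overlaps Tcfl5, a transcription factor gene, which stood at 1.25 FPKM in AAV-Gata1 and 1.24 FPKM in AAV-Control. Of 10 measured oligodendrocyte lineage markers 8 had a log2 ratio below 0, where 54.7% of all measured genes did. Their median was −0.087, and none was past 1.2-fold on the log2 scale. By FPKM ratio Enpp2 (0.824) and Gpr17 (0.832) were past that limit. The lean below 0 was not particular to that list: neuron markers were lower in 10 of 11 measured cases (median −0.077). Astrocyte markers were lower in 5 of 9, and microglia markers higher in 11 of 11. The part of any of these cell types in the Col9a3 difference was not tested.

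Col22a1, a collagen known from junctions of muscle and tendon, stood at 3.51 FPKM in AAV-Gata1 and 2.51 FPKM in AAV-Control, an FPKM ratio of 1.40 and a log2 ratio of 0.36. Of the measured genes, 230 were at least as high. Col16a1, which lies with small fibrils in many tissues, stood at 9.41 FPKM in AAV-Gata1 and 8.08 FPKM in AAV-Control (log2 ratio 0.20). Col12a1, which binds collagen I fibrils, stood at 2.49 FPKM in AAV-Gata1 and 2.19 FPKM in AAV-Control (log2 ratio 0.13). Thus 4 of the 5 measured members of the class were higher in AAV-Gata1, with a median log2 ratio of 0.13, and Col9a3 was lower. Over all 9 genes of the class the median was 0.062. Col16a1 overlaps the predicted gene Gm12963, which stood at 2.06 FPKM in AAV-Gata1 and 2.96 FPKM in AAV-Control. Below 1 FPKM were Col20a1, at 0.923 FPKM in AAV-Gata1 and 0.842 FPKM in AAV-Control, and Col14a1, at 0.227 and 0.141 FPKM. Col19a1, which in mouse hippocampus is made by interneurons and acts in synapse formation, stood at 0.457 FPKM in AAV-Gata1 and 0.473 FPKM in AAV-Control.

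Collagen VI forms beaded filaments around cells and needs 3 different chains in each trimer. Col6a1 was the single measured gene of the class. Its difference was under 1.2-fold on the log2 scale with the pseudocount, but past it by FPKM ratio. Col6a1 stood at 1.92 FPKM in AAV-Gata1 and 2.35 FPKM in AAV-Control (log2 ratio −0.20), and its neighbour Col6a2 at 0.472 and 0.578 FPKM (log2 ratio −0.10). The FPKM ratios of these neighbours, 0.818 for Col6a1 and 0.817 for Col6a2, were nearly equal. The third classical chain, Col6a3, named after its values were seen, stood at 0.0750 FPKM in AAV-Gata1 and 0.111 FPKM in AAV-Control, so that the chains were far from equal in mRNA. Of the later described chains, Col6a4 stood at 0.0401 FPKM in AAV-Gata1 and 0.265 FPKM in AAV-Control, and Col6a5 at 0.115 FPKM in both. Summed over all 6 genes the class stood at 2.63 FPKM in AAV-Gata1 and 3.43 FPKM in AAV-Control.

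The remaining classes had few measured members. Col18a1, a basement membrane collagen whose end fragment is endostatin, stood at 3.22 FPKM in AAV-Gata1 and 3.38 FPKM in AAV-Control, and its relative Col15a1 at 0.572 and 0.657 FPKM. Col8a2, of the network collagen of the cornea and of vessel walls, stood at 1.70 FPKM in AAV-Gata1 and 1.58 FPKM in AAV-Control, and its partner Col8a1 at 0.577 and 0.699 FPKM. Transmembrane collagens are anchored in the cell membrane and can be shed. Among them Col23a1 stood at 1.03 FPKM in AAV-Gata1 and 1.15 FPKM in AAV-Control. Col25a1, a neuronal collagen whose shed part is found in amyloid plaques, stood at 0.769 FPKM in AAV-Gata1 and 0.972 FPKM in AAV-Control (log2 ratio −0.16).

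Col26a1, a short collagen with an EMI domain, was lower, at 2.26 FPKM in AAV-Gata1 and 2.96 FPKM in AAV-Control, an FPKM ratio of 0.765 and a log2 ratio of −0.28. Of the measured genes, 486 were at least as low. Col7a1, which forms the anchoring fibrils of skin, stood at 0.567 FPKM in AAV-Gata1 and 0.611 FPKM in AAV-Control. The 8 genes with a mean under 0.1 FPKM (Col3a1, Col24a1, Col6a3, Col6a6, Col10a1, Col17a1, Col13a1 and Col28a1) lay between 0.0101 and 0.107 FPKM in AAV-Gata1 and between 0.0114 and 0.119 FPKM in AAV-Control. Of all 24 collagen genes under 1 FPKM, 10 were higher and 14 lower in AAV-Gata1. The share over all genes under 1 FPKM was not taken, so no lean is read from these counts.

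Collagen genes lie on 15 chromosomes in RefSeq, and 12 pairs lie within 1 Mb of each other. Besides the collagen IV pairs, neighbours often differed in level. Col5a2 was 46.5 times as abundant as its neighbour Col3a1 in AAV-Gata1 and 59.0 times in AAV-Control, and Col9a3 lies near Col20a1, which was far lower. Of the 20 measured collagen genes, 10 overlap another annotated gene, among them Col4a1, Col4a2, Col9a3, Col16a1 and Col26a1. The library kit keeps strand, but the sources used here do not say whether fragments were counted by strand, so fragments of such genes could be shared. Gm20485, which overlaps Col26a1, was listed at 0 in both libraries. So were Gm13372 (at Col5a1), Mir455 (at Col27a1) and Gm15078 (at Col4a6). Tcfl5 (at Col9a3), Gm12963 (at Col16a1) and Gm15418 (at Col4a1) were above 0 in both. Some other overlapping genes had no value.

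The machinery that makes collagen was well represented, and the medians of its lists lay near 0. Of all measured genes 54.7% had a log2 ratio below 0, the share to set beside the counts of each list. Past 1.2-fold the shares were 3.29% higher and 3.98% lower. All 14 genes of chain hydroxylation and glycosylation were measured, with 5 higher and 9 lower and a median log2 ratio of −0.041. P4hb, the shared subunit of prolyl 4-hydroxylase, stood at 101.5 FPKM in AAV-Gata1 and 99.4 FPKM in AAV-Control, and the catalytic P4ha1 at 37.5 and 34.5 FPKM. Lepre1, which encodes prolyl 3-hydroxylase 1, was the single member past 1.2-fold, at 8.01 FPKM in AAV-Gata1 and 6.15 FPKM in AAV-Control (log2 ratio 0.33). On the lower side were P4ha3 (10.4 FPKM in AAV-Gata1 and 12.4 FPKM in AAV-Control), P4ha2 (6.06 and 6.73 FPKM) and the lysyl hydroxylase gene Plod3 (15.9 and 17.8 FPKM).

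Of the 14 genes of collagen folding and secretion, 4 were higher and 10 lower, at a median of −0.060. Sparc, a secreted collagen-binding protein abundant in brain glia, stood at 390 FPKM in AAV-Gata1 and 411 FPKM in AAV-Control, and Ppib, a prolyl isomerase of the endoplasmic reticulum, at 147 and 133 FPKM. Past 1.2-fold were Fkbp7, another prolyl isomerase, at 3.09 FPKM in AAV-Gata1 and 4.46 FPKM in AAV-Control (log2 ratio −0.42), and Sec31a, a coat protein of the vesicles that leave the endoplasmic reticulum, at 37.5 and 47.3 FPKM (log2 ratio −0.33). These were 2 of the 14 genes, where 3.98% of all measured genes were lower by that much. Tmem38b, an ion channel of the endoplasmic reticulum, stood at 6.77 FPKM in AAV-Gata1 and 7.66 FPKM in AAV-Control. Of the 15 genes of procollagen processing and crosslinking 8 were measured, 4 higher and 4 lower. Their median was 0.0093 (−0.019 over all 15), and none was past 1.2-fold on the log2 scale. Pxdn, which crosslinks collagen IV, stood at 20.3 FPKM in AAV-Gata1 and 22.7 FPKM in AAV-Control. The propeptidase genes Bmp1 (13.9 and 15.0 FPKM) and Adamts3 (2.60 and 2.97 FPKM) were also slightly lower. Pcolce, whose product enhances Bmp1, stood at 2.80 FPKM in AAV-Gata1 and 2.18 FPKM in AAV-Control (log2 ratio 0.26, FPKM ratio 1.28).

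Among 11 collagen receptor genes 7 were measured, with a median of 0.018, 4 higher and 3 lower, and a median of −0.016 over all 11. Ddr1, a receptor tyrosine kinase for collagen, stood at 139.8 FPKM in AAV-Gata1 and 138.0 FPKM in AAV-Control, and the integrin chain gene Itgb1 at 86.0 and 79.4 FPKM. Gpr56, which in mouse cortex binds collagen III at the pial surface, stood at 74.2 FPKM in AAV-Gata1 and 81.9 FPKM in AAV-Control, and the uptake receptor gene Mrc2 at 1.42 and 1.71 FPKM. Lair1, an inhibitory collagen receptor of immune cells, was the single member past 1.2-fold, at 6.65 FPKM in AAV-Gata1 and 4.67 FPKM in AAV-Control (log2 ratio 0.43). Microglia markers, among them Tyrobp, were higher beside it, in 11 of 11 measured cases, with a sum over the list of 674 FPKM in AAV-Gata1 and 572 FPKM in AAV-Control. Their part in the Lair1 difference was not tested.

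Genes of collagen breakdown and its inhibitors had 9 of 13 members measured. Of these, 2 were higher and 7 lower, where 54.7% of all measured genes were lower. Their median was −0.052, and none was past 1.2-fold on the log2 scale. Timp2, an inhibitor of metalloproteinases, stood at 280 FPKM in AAV-Gata1 and 274 FPKM in AAV-Control. The membrane-bound collagenase gene Mmp14 stood at 45.5 FPKM in AAV-Gata1 and 47.2 FPKM in AAV-Control, and its relative Mmp16 at 9.90 and 10.6 FPKM. Reck, a membrane-bound inhibitor, stood at 2.89 FPKM in AAV-Gata1 and 3.62 FPKM in AAV-Control (log2 ratio −0.25, FPKM ratio 0.799). The inhibitor genes Timp1 (1.63 FPKM in AAV-Gata1 and 1.48 FPKM in AAV-Control) and Timp4 (2.99 and 3.14 FPKM) differed less.

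Other basement membrane genes, which work beside collagen IV, were lower in 8 of 9 measured cases, where 54.7% of all measured genes were. Their median was −0.067, and none was past 1.2-fold on the log2 scale. Lama5, a laminin chain, stood at 9.63 FPKM in AAV-Gata1 and 11.7 FPKM in AAV-Control (log2 ratio −0.26, FPKM ratio 0.823). Lamc1, the commonest laminin gamma chain, stood at 22.4 and 24.4 FPKM in the same order. Agrn, a heparan sulfate proteoglycan, stood at 50.7 FPKM in AAV-Gata1 and 55.1 FPKM in AAV-Control, the laminin receptor gene Dag1 at 102 and 107 FPKM, and Lama2 at 1.98 and 2.16 FPKM. Of 21 other matrix genes of fibroblasts 17 were measured, 4 higher and 13 lower, at a median of −0.054, beside the same 54.7%. Thbs1 stood at 66.6 FPKM in AAV-Gata1 and 64.6 FPKM in AAV-Control, Prelp at 43.7 and 45.5 FPKM, Ogn at 35.5 and 30.8 FPKM and fibronectin (Fn1) at 12.5 and 14.04 FPKM. Bgn, a small collagen-binding proteoglycan, was past 1.2-fold, at 0.994 FPKM in AAV-Gata1 and 1.62 FPKM in AAV-Control (log2 ratio −0.39), and Postn stood at 1.14 and 0.878 FPKM.

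TGF-beta signalling, which drives collagen transcription in fibroblasts, had 13 of 15 genes measured. Of these, 7 were higher and 6 lower, at a median of 0.0058 and with none past 1.2-fold on the log2 scale. By FPKM ratio Ltbp1 (0.711) and Smad7 (1.22) were past that limit. The ligand genes Tgfb2 (20.6 FPKM in AAV-Gata1 and 18.3 FPKM in AAV-Control) and Tgfb1 (4.84 and 4.21 FPKM) were slightly higher. The inhibitor gene Smad7 stood at 2.35 FPKM in AAV-Gata1 and 1.92 FPKM in AAV-Control, and Smad4, the shared signal carrier, at 33.4 and 34.3 FPKM. Ltbp1, which stores the ligand in the matrix, stood at 0.888 FPKM in AAV-Gata1 and 1.25 FPKM in AAV-Control (log2 ratio −0.25). Ctgf, a well-known target of the pathway, stood at 79.8 FPKM in AAV-Gata1 and 79.2 FPKM in AAV-Control.

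**Figure D4:**
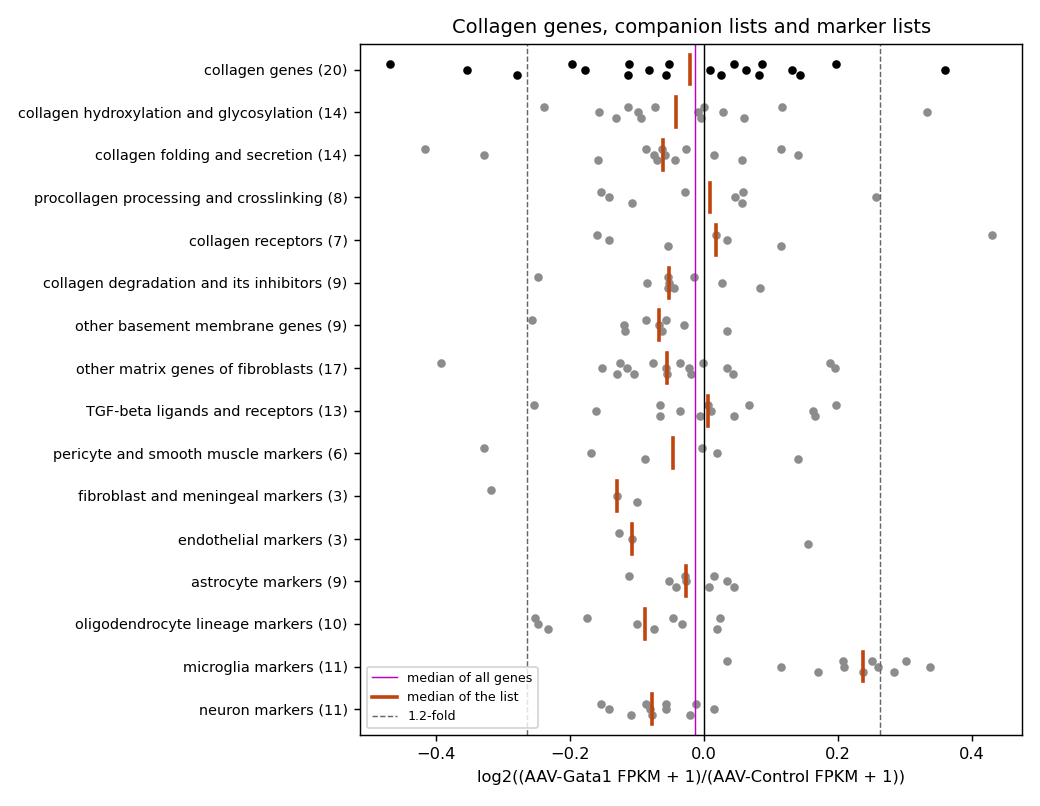
Log2 ratio (AAV-Gata1 over AAV-Control, pseudocount of 1 FPKM) of each measured gene (points) in the collagen genes, the companion lists and the marker lists, with the number measured in brackets, a thick bar at each list's median, dashed lines at 1.2-fold and a thin line at the median of all measured genes. The collagen genes spread on both sides of 0 with a median of −0.021, and the microglia markers lie furthest from 0, at a median of 0.24.

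Markers of cell types that can make collagen stood beside these values as follows. Of all measured genes 54.7% were lower in AAV-Gata1. The 11 pericyte and smooth muscle markers summed to 121 FPKM in AAV-Gata1 and 140 FPKM in AAV-Control, led by Acta2 (60.7 and 76.4 FPKM) and Tagln (36.8 and 41.5 FPKM), with 4 of 6 measured markers lower. The 12 fibroblast and meningeal markers summed to 32.2 FPKM in AAV-Gata1 and 35.6 FPKM in AAV-Control, with 3 of 3 measured markers lower; the highest of them, Pdgfra (22.4 and 24.1 FPKM), is also made by oligodendrocyte precursors. The 12 endothelial markers summed to 12.39 FPKM in AAV-Gata1 and 12.004 FPKM in AAV-Control, led by Egfl7 (5.08 and 4.46 FPKM) and Slco1a4 (3.56 and 3.98 FPKM), with 2 of 3 measured markers lower. These 3 lists held genes at 0: 1, 3 and 2 genes in AAV-Gata1 and 1, 4 and 1 genes in AAV-Control. Among markers of the cells that filled the cultures, astrocyte markers (Gfap and Slc1a3 highest) summed to 2470.1 FPKM in AAV-Gata1 and 2475 FPKM in AAV-Control, with 4 higher and 5 lower. Oligodendrocyte lineage markers (Olig1 and Mbp highest) summed to 243 FPKM in AAV-Gata1 and 259 FPKM in AAV-Control, with 2 higher and 8 lower. Neuron markers (Stmn2 and Map2 highest) summed to 992 FPKM in AAV-Gata1 and 1027 FPKM in AAV-Control, with 1 higher and 10 lower. Their part in the collagen differences was not tested.

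The miR-29 family is known to bind the mRNAs of many collagens and to lower their levels. Its 3p members are shown because they share 1 seed (bases 2 to 8, in capitals), the part of a microRNA that pairs with targets. The mature sequences are from RefSeq on build GRCm38.p6, where miR-29a-3p lies at chr6:31062673-31062694 (minus strand) and miR-29c-3p at chr1:195037600-195037621 (plus strand). The sequence of miR-29b-3p is encoded at chr6:31063025-31063047 (minus strand) and at chr1:195037091-195037113 (plus strand).
miR-29a-3p: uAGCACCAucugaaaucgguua
miR-29b-3p: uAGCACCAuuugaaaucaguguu
miR-29c-3p: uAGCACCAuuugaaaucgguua

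Nearly all of the family's 3p reads were those of miR-29a-3p, which was slightly higher in AAV-Gata1. It stood at 198 CPM (reads scaled to the library total) in AAV-Gata1 and 182 CPM in AAV-Control, from 2498 and 2847 reads, a CPM ratio of 1.08 with a 95% exact counting interval of 1.03 to 1.15. miR-29c-3p stood at 4.90 CPM in AAV-Gata1 and 2.69 CPM in AAV-Control, from 62 and 42 reads, a ratio of 1.83 with an interval of 1.21 to 2.77. miR-29b-3p stood at 0.0800 CPM in AAV-Gata1 and 1.15 CPM in AAV-Control, from 1 and 18 reads, a ratio of 0.0687 with an interval of 0.00165 to 0.435. These intervals are Clopper-Pearson intervals of the reads of 2 libraries and cover counting error only, since PCR reads are not independent molecules. The miR-29b-3p ratio rests on fewer than 20 reads in the row used. Its log2 ratio of −3.86 was the same with its 2 rows summed. Of the 563 microRNAs with at least 20 reads, 29.8% had an interval above 1 and 19.4% an interval below 1. Among the 5p arms with at least 20 reads, miR-29b-1-5p had 54 and 100 reads, a ratio of 0.668 (interval 0.470 to 0.939). For miR-29b-2-5p the reads were 38 and 60, a ratio of 0.783 (0.507 to 1.195). For miR-29c-5p they were 47 and 60, a ratio of 0.968 (0.647 to 1.44). Both miR-29b 5p arms thus had more reads than miR-29b-3p, which was listed in 2 rows, and the cause was not tested. miR-29a-5p had 2 reads in AAV-Gata1 and 1 read in AAV-Control.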

How the data were processed

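Values were taken as the authors deposited them. The mRNA values are FPKM, per the file headers; the small RNA values are CPM made by the authors, which the file headers call normalized counts. Builds mm9 and mm10 are named in the submitters' processing notes without roles, as are edgeR 3.10.2, HTSeq 0.6.1p1, Bowtie 1.1.2, Cuffdiff 2.1.1, Cufflinks 2.1.1, TopHat2 2.1.1, HOMER and BWA.

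Rows with no symbol (6, 0.0113% of FPKM in AAV-Gata1 and 0.0122% in AAV-Control) were left out, and the highest-mean row of each symbol was kept. Whole fragments could not be recovered from the FPKM: at most 43 of 1274 genes below 0.1 FPKM had log2 ratios that lay within 0.02 of one another. CPM were whole multiples of 1 read for 100% of values above 0 (tolerance 0.0055 CPM), giving 12644419 reads in AAV-Gata1 and 15632553 in AAV-Control over all rows. No count test was possible with 1 library per condition.

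All collagen genes were named above a mean of 0.1 FPKM. The few below a mean of 0.1 FPKM are given by range, and Gata1 and the miR-29 arms are named. Of each marker list the 2 highest are named, except 1 gene that is not reported here. Of each companion list the text gives up to 4 measured members with the largest absolute log2 ratio and the 2 highest. Any other gene is named as a marker, an overlapping gene or as said beside it. The members and lists were chosen with earlier results of these data known. Medians were taken over at least 3 measured genes. All 44 symbols matched RefSeq (GRCm38.p6). Python 3.11.15, pandas 2.3.3 and scipy 1.17.1 were used.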

Additional observations from a re-analysis of the deposited data

How the results depend on the processing

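Under the alternative settings 306 recomputed values stayed within the limit set for them and 27 did not. Of the 306, 73 came from summing the rows of each symbol. That setting could not move a collagen value, because each collagen symbol had 1 row. The limit was a change of 0.1 for log2 ratios and medians and of 1.5-fold for counts and shares. In the main setting 3 of 11 measured microglia markers were at least 1.2-fold higher. In each of the pericyte and fibroblast lists 1 measured marker was lower by that much. The shares over all measured genes were 3.29% higher and 3.98% lower. With a pseudocount of 0.1 FPKM, 1 gene was at least 1.2-fold higher in each of procollagen processing, fibroblast matrix and TGF-beta, and 5 in microglia markers. In the same setting 1 was lower in each of collagen degradation, other basement membrane and TGF-beta, and 2 in oligodendrocyte markers. Of all genes 4.94% were higher and 5.90% lower in that setting. There 4 collagen genes were lower, the added one being Col6a1 (−0.28), and the log2 ratios of Col11a2 and Col22a1 were −0.51 and 0.46. Centring on the median of all genes gave 1 higher gene in procollagen processing and 5 in microglia markers, where 3.65% of all genes were higher. Without a minimum mean, 4 collagen genes were lower, the added one being Col6a4, the fibril-associated median was 0.062, and the receptor and processing medians changed sign (−0.016 and −0.019). In that setting 1 pericyte and 1 fibroblast marker were higher, 2 fibroblast markers lower, and the endothelial median was 0.042. Of all genes with a mean above 0, 4.01% were higher and 4.87% lower there. With a minimum mean of 5 FPKM the collagen genes had 0 higher and 1 lower (Col9a3) and a median of 0.083. The same minimum left 1 lower gene in folding and secretion and 0 in fibroblast matrix and in fibroblast markers. It gave medians of −0.11 in procollagen processing and −0.17 in pericyte markers, and 1.86% of all genes higher and 2.31% lower, over fewer genes. Values of genes under 1 FPKM and of microRNAs under 20 reads rest on few reads. No paired analysis was possible because each condition had 1 library of each kind.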
